A study of Oryctolagus cuniculus with 16 samples.

Results

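Interleukin 17B (IL17B) and the receptors of the interleukin 17 family were described in RNA-seq counts of rabbit vaginal wall. The members were taken by gene symbol: IL17B, the ligand, and the receptor genes IL17RA, IL17RB, IL17RC, IL17RD and IL17RE. These 6 of the 7 genes asked for were found among the 13001 named genes, and all 6 were among the 10942 genes tested after a filter on low counts. IL17D, the other ligand asked for, was not analysed here. IL17B was chosen by its measured level, which was lower in operated than in unoperated animals, so its differences from unoperated animals are given below as a description, with no test. The receptors were chosen as its family.

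Interleukin 17 cytokines are secreted dimers that bind paired receptors of a single family. IL17RA is the widely expressed shared chain, and it pairs with IL17RC to bind IL17A and IL17F, with IL17RB to bind IL25 (interleukin 17E), and with IL17RE to bind IL17C. IL17A and IL17F come mostly from T helper and innate-like lymphocytes and act on epithelium and stroma, where they induce neutrophil-attracting chemokines and antimicrobial proteins. IL17B binds IL17RB and is less well understood; it is expressed in tissues such as cartilage, nerve and gut rather than mainly in lymphocytes. IL17RD, also called Sef, is best known as a feedback inhibitor of fibroblast growth factor (FGF) receptor signalling.

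The study asked how the vaginal wall heals after surgery with different grafts. Female New Zealand White rabbits, 17 to 19 weeks old and juvenile, were taken to have given 1 library each. There were 6 unoperated vaginas (control), 3 after a sham operation (sham), 3 that had received a graft without cells (acellular) and 4 that had received a PLATE graft, which carried the animal's own tissue as micrografts. Tissue of both graft groups was taken 10 mm from the graft. The time between operation and sampling was not given in the sources used here. Libraries are named by their group and animal number, and number 9 was given both to a control and to a PLATE library. Whether these came from the same animal was not given, and they were treated as different animals. Animals within a group are the replicates, and each library is bulk tissue, so that fewer cells of a type and less RNA per cell cannot be told apart.

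Libraries held 20992063 to 30695000 counts, and 15348880 to 23236339 of them fell on named genes. Levels are given as CPM, the count relative to the library's named counts after TMM scaling, on which 1 count was worth 0.0400 to 0.0900 CPM. Gene lengths were not used, so levels are compared between libraries and not between genes. Control 2, control 9 and PLATE 1 stood apart from their groups. Control 2 had a TMM factor of 0.592, against 0.917 to 1.15 in the other 15 libraries, which raises its CPM relative to theirs. The summed level of 13 columnar epithelium markers was 20.2 CPM in control 2, against 347 to 2529 CPM in the other 15 libraries. The summed level of 11 neutrophil markers was 4154 CPM in PLATE 1 and 1240 CPM in control 9, against 65.2 to 687 CPM in the other 14 libraries. Smooth muscle markers were above 0 in every library.

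IL17B was counted in every library, with 19 to 421 counts. In control animals it stood at 26.4 CPM in control 2, 2.28 in control 9, 10.8 in control 16, 19.4 in control 24, 21.8 in control 25 and 3.81 in control 29. Before scaling, control 2 held 293 counts, fewer than control 24 with 417 and control 25 with 421. The sham libraries held 7.40, 2.49 and 8.69 CPM (animals 11, 12 and 14), and the acellular libraries 1.69, 1.28 and 1.13 CPM (animals 6, 8 and 10). In the PLATE libraries IL17B stood at 7.37, 6.77, 7.90 and 5.46 CPM (animals 1, 5, 9 and 13). The 4 highest controls lay above every operated library, and the 3 acellular libraries lay below each of the other 13. The other 2 controls, control 9 and control 29, lay within the range of the operated animals.

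**Figure D1:**
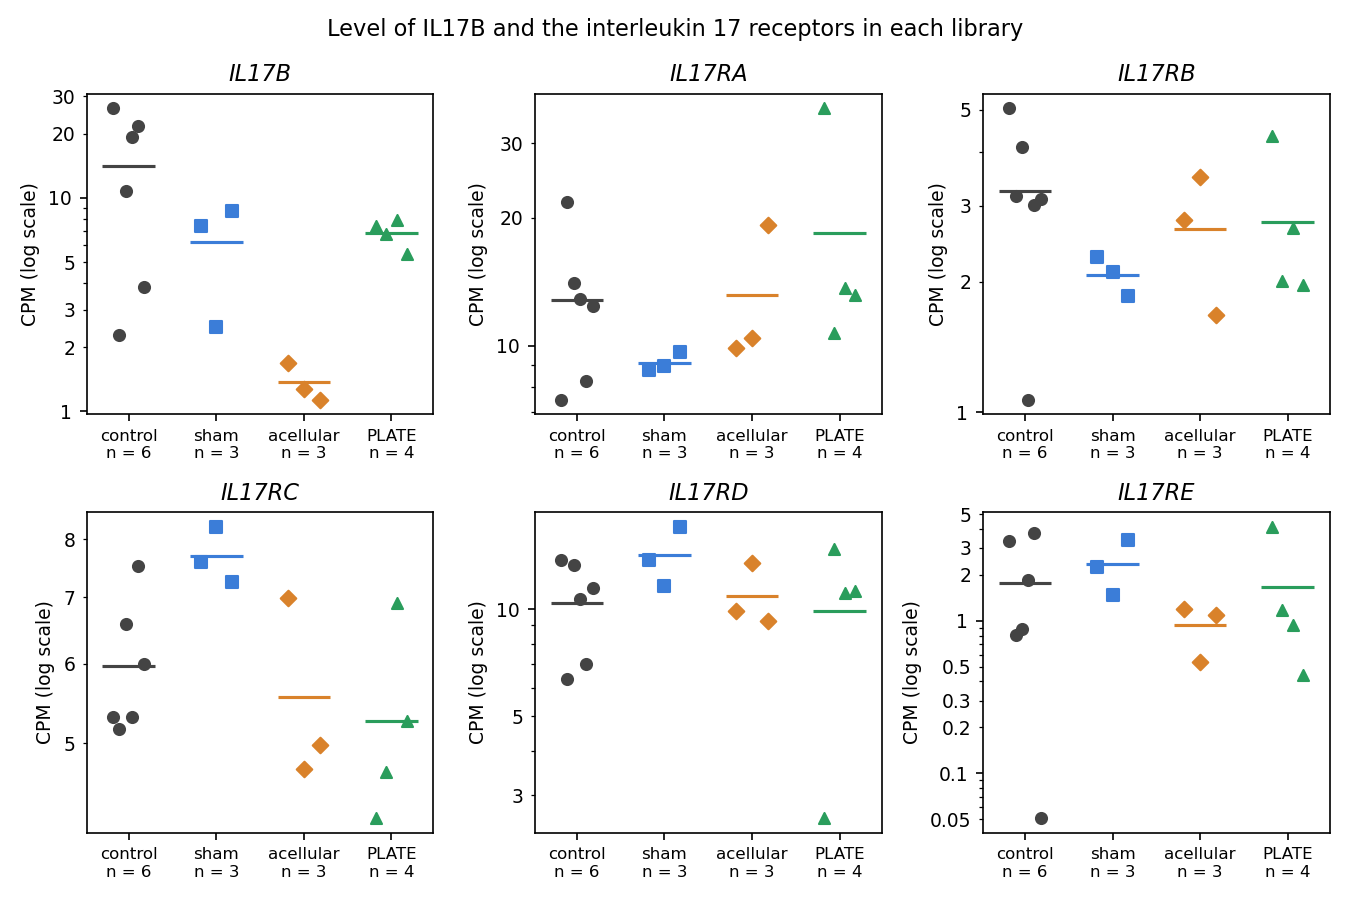
Level of IL17B and of the 5 receptors in each of the 16 libraries, in CPM on a log axis, with a separate scale per gene; points are animals and horizontal lines are group means of CPM. IL17B lay between 1.13 and 1.69 CPM in the 3 acellular libraries, below all others, whereas the receptors' groups largely overlapped.

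The order of the group means of IL17B was acellular, sham, PLATE and control. The means were 1.37 ± 0.287 CPM in acellular (SD, n = 3), 6.19 ± 3.27 in sham (SD, n = 3), 6.88 ± 1.05 in PLATE (SD, n = 4) and 14.1 ± 9.95 in control (SD, n = 6). Fitted log2 fold changes against control, with their standard errors, were -1.18 ± 0.635 for sham, -3.35 ± 0.731 for acellular and -1.03 ± 0.568 for PLATE, and -1.85 ± 0.437 for all operated groups with equal weight. Only the acellular group did not overlap control, which was so in the lower direction for 1.02% of all genes tested. Without control 2 and PLATE 1 the operated value was -1.59, and without control 9 as well it was -1.86. These values describe the choice of IL17B and are not a finding of their own.

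The choice used the level of all operated samples, the acellular ones among them, but not the differences between operated groups. Among these groups IL17B was lower in acellular than in sham by a log2 fold change of -2.17 ± 0.743. Its 95% interval ran from -3.76 to -0.59, but the adjusted p was 0.902 (edgeR's quasi-likelihood test with Benjamini-Hochberg adjustment over all genes tested) and 0.387 in DESeq2. PLATE lay above acellular by 2.32 ± 0.721, with an interval of 0.79 to 3.86 and an edgeR adjusted p of 0.875 (0.310 in DESeq2). Neither difference passed the threshold of 0.05. The groups did not overlap in either comparison, which was also so for 10.5% of all genes in the lower direction between acellular and sham, and for 3.27% in the higher direction between PLATE and acellular. PLATE and sham overlapped and differed by 0.15 ± 0.654, with an interval of -1.24 to 1.54 and an edgeR adjusted p of 0.959. This last value changed sign when sham 12, the lowest sham library, was left out (-0.23). The joint test that the 3 operated groups did not differ gave an edgeR adjusted p of 0.801 for IL17B.

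No gene passed the threshold in edgeR in any of these comparisons, 0% of the 10942 tested, so that the members' lack of calls was that of the whole table. At an unadjusted p under 0.05, edgeR held 326 genes between sham and control, 656 between acellular and control, 480 between PLATE and control and 425 between operated and control. Among the operated groups it held 533 genes between acellular and sham, 821 between PLATE and sham, 515 between PLATE and acellular and 621 in the joint test. DESeq2 called 10 genes between acellular and control, 14 between PLATE and sham, 1 each between acellular and sham, PLATE and acellular, and operated and control, and 0 in the other comparisons. limma voom with quality weights called 72 genes between acellular and sham and 0 elsewhere. None of the 5 receptors was called by any of the 3 tools in any comparison, nor was IL17B in a comparison among operated groups.

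IL17RA, the shared chain, stood at 7.47 CPM in control 2, 21.8 in control 9, 14.1 in control 16, 12.9 in control 24, 8.24 in control 25 and 12.4 in control 29. Sham libraries held 8.75, 8.95 and 9.68 CPM, acellular libraries 9.90, 10.4 and 19.2 CPM, and PLATE libraries 36.3, 10.7, 13.7 and 13.2 CPM, in the order of animals used above. PLATE 1 was the highest of all, and control 9 and acellular 10 followed. The group means were 12.8 ± 5.14 CPM in control (SD, n = 6), 9.13 ± 0.485 in sham (SD, n = 3), 13.2 ± 5.25 in acellular (SD, n = 3) and 18.5 ± 11.9 in PLATE (SD, n = 4).

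Operated and control animals differed in IL17RA by a log2 fold change of 0.02 ± 0.292, with a 95% interval of -0.60 to 0.65, a value whose sign turned in several alternatives. PLATE lay above control by 0.52 ± 0.359 (edgeR adjusted p = 0.998), and by -0.034 without PLATE 1. Each PLATE library lay above each sham library, as for 7.91% of all genes in that direction, with a log2 fold change of 1.02 ± 0.441 (edgeR adjusted p = 0.657). Without PLATE 1 that value was 0.46. The acellular libraries also lay above every sham library, as for 7.82% of genes, by 0.53 ± 0.461 (edgeR adjusted p = 0.909), and by 0.15 without acellular 10.

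IL17RC, which pairs with IL17RA to bind IL17A and IL17F, was the steadiest member, with a highest level 1.96 times the lowest. Control libraries held 5.31, 5.16, 6.58, 5.30, 7.52 and 6.00 CPM (animals 2, 9, 16, 24, 25 and 29), sham libraries 7.59, 8.24 and 7.25, acellular libraries 6.98, 4.70 and 4.98, and PLATE libraries 4.20, 4.67, 6.90 and 5.26. The 3 sham libraries were above all acellular and PLATE libraries and overlapped control. The group means were 5.98 ± 0.928 CPM in control (SD, n = 6), 7.69 ± 0.502 in sham (SD, n = 3), 5.55 ± 1.24 in acellular (SD, n = 3) and 5.26 ± 1.18 in PLATE (SD, n = 4). Between acellular and sham the log2 fold change was -0.47 ± 0.271 (edgeR adjusted p = 0.902), and between PLATE and sham -0.55 ± 0.251 (edgeR adjusted p = 0.657). Non-overlap of this direction held for 10.5% and 6.95% of all genes. For operated against control the value was 0.02 ± 0.172, with an interval of -0.34 to 0.39, and it ran from -0.042 to 0.10 when single libraries were left out.

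IL17RB, the receptor that binds IL17B and, with IL17RA, IL25, stood at 5.04, 3.16, 4.11, 1.07, 3.01 and 3.10 CPM in the controls. It held 2.28, 2.11 and 1.85 CPM in sham, 2.78, 3.49 and 1.68 in acellular and 4.33, 2.01, 2.67 and 1.97 in PLATE libraries. The groups overlapped, and the highest and the lowest value both came from control animals. The group means were 3.25 ± 1.32 CPM in control (SD, n = 6), 2.08 ± 0.216 in sham (SD, n = 3), 2.65 ± 0.916 in acellular (SD, n = 3) and 2.74 ± 1.11 in PLATE (SD, n = 4). Operated animals differed from control by -0.39 ± 0.307, with an interval of -1.04 to 0.27 (-0.22 without control 2), and sham from control by -0.64 ± 0.434 (edgeR adjusted p = 0.963). Across the 16 libraries the log2 levels of IL17B and IL17RB had a Pearson correlation of 0.08, given as a description. That of IL17B with IL17RE was 0.50, or 0.70 with group means removed, and with the other receptors it lay between -0.25 and 0.14.

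IL17RE, which pairs with IL17RA to bind IL17C, was the most variable member, with a biological coefficient of variation of 0.80 against 0.26 for IL17RC and 0.59 for IL17B. Control libraries held 3.33, 0.800, 0.883, 1.86, 3.73 and 0.0508 CPM, and the last of these, in control 29, was a single count. Sham libraries held 2.24, 1.48 and 3.38 CPM, acellular libraries 1.19, 0.538 and 1.09, and PLATE libraries 4.14, 1.18, 0.942 and 0.443. The acellular libraries were below every sham library, as for 10.5% of all genes, with a log2 fold change of -1.32 ± 0.998 (edgeR adjusted p = 0.902), while control and PLATE spanned both. The group means were 1.78 ± 1.48 CPM in control (SD, n = 6), 2.37 ± 0.953 in sham (SD, n = 3), 0.936 ± 0.349 in acellular (SD, n = 3) and 1.68 ± 1.67 in PLATE (SD, n = 4). For operated against control the value was -0.18 ± 0.621, with an interval of -1.51 to 1.14. It was 0.61 with limma voom, 0.19 without control 25 and -0.50 without PLATE 1.

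IL17RD, the FGF feedback inhibitor, stood at 13.8, 6.36, 13.3, 10.7, 7.0 and 11.4 CPM in the controls and at 13.7, 11.6 and 17.0 CPM in sham. It held 9.85, 13.4 and 9.27 CPM in acellular and 2.59, 14.7, 11.1 and 11.2 CPM in PLATE libraries. PLATE 1 was the lowest of all 16 libraries, and the other 3 PLATE libraries lay within the range of the rest. The group means were 10.4 ± 3.13 CPM in control (SD, n = 6), 14.1 ± 2.73 in sham (SD, n = 3), 10.9 ± 2.26 in acellular (SD, n = 3) and 9.90 ± 5.16 in PLATE (SD, n = 4). Operated animals differed from control by 0.14 ± 0.294, with an interval of -0.48 to 0.77. This value was 0.035 without control 9, 0.25 without PLATE 1 and 0.35 without control 2 and PLATE 1. PLATE differed from sham by -0.51 ± 0.428 (edgeR adjusted p = 0.754), and by -0.20 without PLATE 1.

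**Figure D2:**
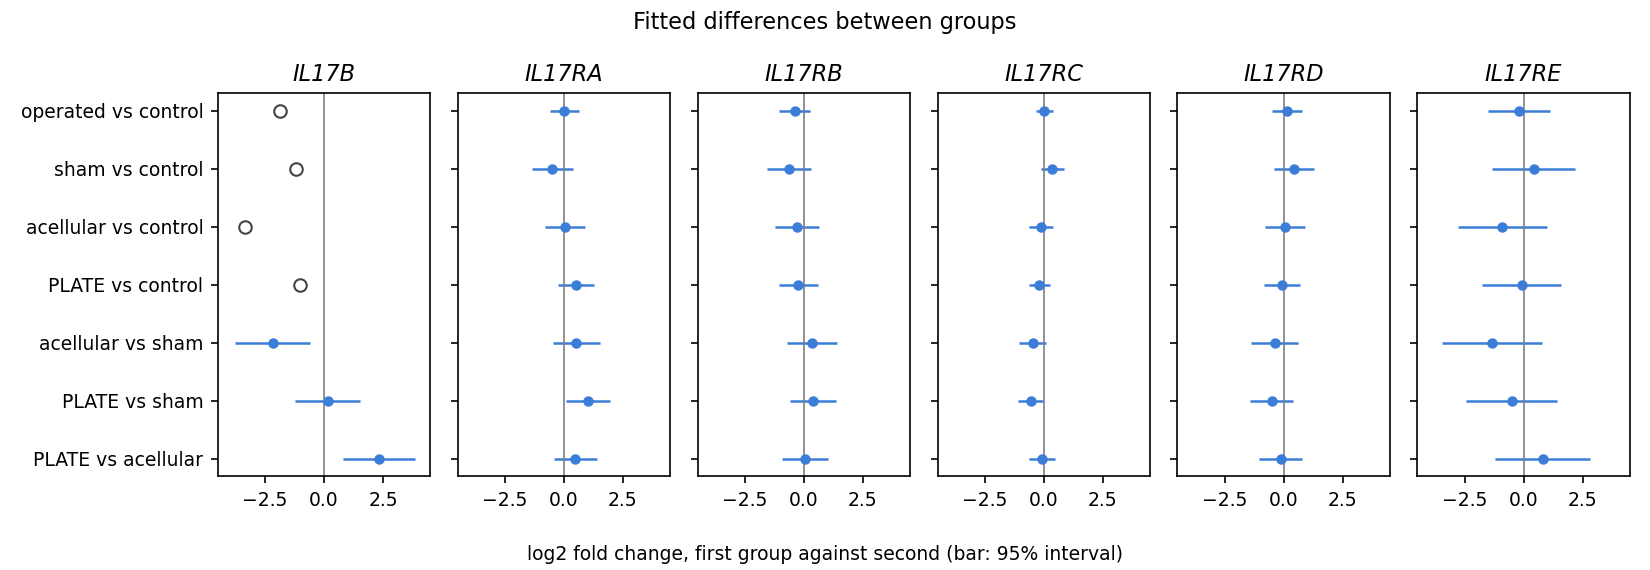
Fitted log2 fold changes of the 6 members in each pair of groups and for operated against control; filled points are estimates, bars are unadjusted 95% intervals from edgeR, and open circles are the values of IL17B against control, given without an interval because they chose the gene. Intervals of the 5 receptors for operated against control all crossed 0.

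The intervals set what these libraries could show. For IL17RC and operated against control, differences beyond 0.39 on the log2 scale lay outside the 95% interval, whereas for IL17RE values down to -1.51 and up to 1.14 lay inside it. All 5 receptors had an edgeR adjusted p of 1.00 in that comparison, which does not show that their levels were alike.

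The other ligands analysed, IL17A, IL17F and IL25, had few counts. IL17C, the ligand of the IL17RA and IL17RE pair, had no row among the named genes. IL17A, the best known member, had 72 counts in PLATE 1 (4.66 CPM) and 8 counts in the other 15 libraries together, with 11 libraries at 0. A count of 0 allows up to 3 counts, which is 0.12 to 0.27 CPM in those libraries, and this bound covers counting error only. IL17F had 29 counts in PLATE 1, 15 in the next library, acellular 10, and 0 in 5 libraries. Its log2 fold change for operated against control was 0.84 ± 1.10 (edgeR adjusted p = 1.00). IL25, the ligand of the IL17RA and IL17RB pair, had 1 count in each of control 25 and PLATE 5 and none elsewhere. The library with most of the IL17A counts was also the one highest in IL17RA and IL17RE and lowest in IL17RC and IL17RD.

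Levels of IL17B moved with smooth muscle transcripts from library to library. ACTA2, smooth muscle alpha actin, was the gene most like IL17B among all genes tested, with a Pearson correlation of log2 CPM of 0.897 over 16 libraries and 0.895 with group means removed. STBD1, a glycogen-binding protein, followed at 0.891, FADS3, of the fatty acid desaturase family, at 0.887, ACTG2, smooth muscle gamma actin, at 0.887, and ITGB1BP2, a muscle-restricted integrin-binding protein, at 0.886. With group means removed these stood at 0.891, 0.884, 0.855 and 0.822. ACTA2 was then no longer the gene most like IL17B. Among all genes tested it ranked 2, STBD1 4, FADS3 6, ACTG2 25 and ITGB1BP2 55. Without control 2, control 9 and PLATE 1 the 5 correlations lay between 0.853 and 0.885. ACTA2 had 1794 CPM in control 9 and 2915 CPM in control 29, the 2 controls with little IL17B, against 12589 to 28883 CPM in the other 4 controls. In the acellular libraries ACTA2 stood at 1728 to 2514 CPM.

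A list of 18 smooth muscle genes had 13 among the genes tested. The mean log2 level of these 13 had a Pearson correlation with IL17B of 0.843 and a Spearman correlation of 0.888. The group difference that chose IL17B enters these values, so they are a description with no test. With group means removed r was 0.869, and without control 2 and control 9, the libraries farthest from the median of the list, it was 0.818. Within the 6 controls r was 0.970, and within the 10 operated animals 0.724. The relation of IL17B was not with smooth muscle markers alone. Its r was 0.660 with skeletal muscle markers, -0.624 with markers of T and natural killer cells and -0.553 with columnar epithelium markers. With group means removed these were 0.639, -0.744 and -0.565. Within the controls they were 0.822, -0.920 and -0.634, and within the operated animals 0.411, -0.057 and -0.371. Over all libraries r with the other marker lists lay between -0.479 and 0.236. Within the operated animals r with fibroblast markers was 0.704, near the 0.724 with smooth muscle markers, and within the controls it was -0.098. With the rest of the lists, r within the operated animals lay between -0.117 and 0.482. These too are descriptions.

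**Figure D3:**
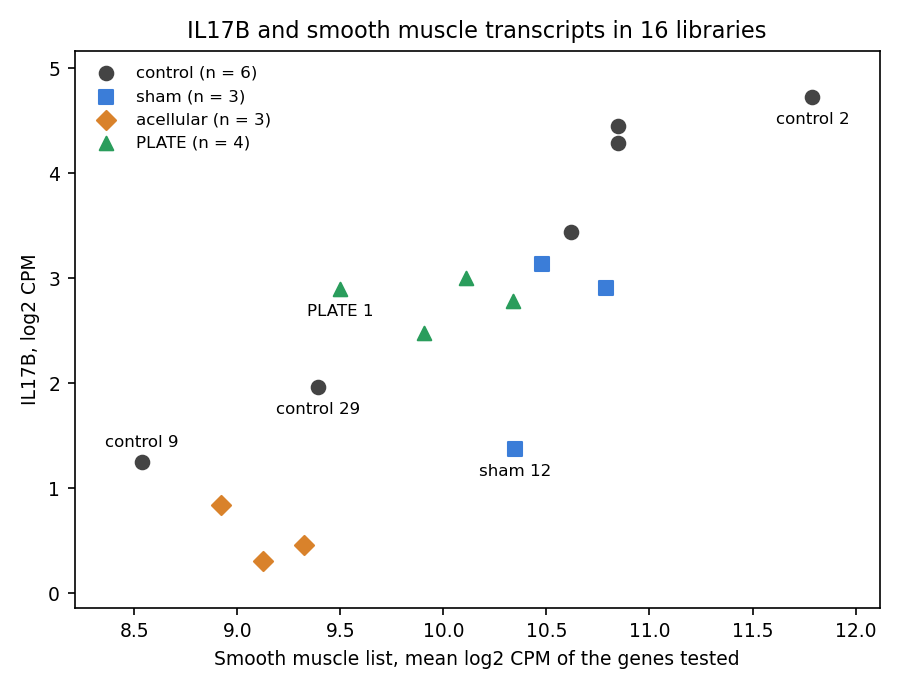
IL17B against the mean of 13 smooth muscle genes, both as log2 CPM, in 16 libraries; each point is an animal, coloured by group. Control 9 and control 29 lay at the low end with the acellular libraries, and Pearson's r was 0.843 over all libraries.

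The summed level of the smooth muscle markers ran from 13320 to 201350 CPM in the controls. It spanned 49622 to 81561 CPM after sham surgery, 18971 to 25331 CPM beside acellular grafts and 38083 to 61182 CPM beside PLATE grafts. Every acellular library held a lower summed smooth muscle level than every sham and PLATE library, and the same order held for IL17B. All 13 genes were lower in acellular than in control, as 54.2% of all genes were, and their median log2 fold change was -1.74 against -0.034 for all genes. All 13 were higher in PLATE than in acellular, where 47.6% of all genes were lower, with a median of 1.07 against 0.023. For operated against control 12 of the 13 were lower, against 55.4% of all genes, with a median of -0.96 against -0.026, and 10 of 13 (median -0.61) without control 2 and PLATE 1. No gene of the list was called in edgeR in any comparison.

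Subtracting the mean log2 level of the smooth muscle list from that of IL17B left part of the difference. IL17B minus the list was -6.98 ± 0.414 in control (SD, n = 6), -8.07 ± 0.832 in sham (SD, n = 3), -8.59 ± 0.438 in acellular (SD, n = 3) and -7.17 ± 0.429 in PLATE (SD, n = 4). On this scale the 3 acellular libraries, sham 11, sham 12 and PLATE 5 and PLATE 13 lay below the lowest control, whereas sham 14 and the other PLATE libraries did not. Over all 10 operated libraries the difference from control was -0.88, against -1.34 for the log2 level of IL17B itself. The part of smooth muscle content in the level of IL17B was not tested beyond these values.

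The place of IL17B in the genome may bear on what its counts hold. In the RefSeq annotation of assembly mOryCun1.1, the span of IL17B encloses the microRNA genes MIR143 and MIR145 and a long non-coding RNA, LOC108176480. MicroRNAs 143 and 145 are made together from a host transcript and are known as the microRNAs of smooth muscle. None of the 3 has a row of its own among the counts analysed here. The libraries were made with a stranded kit, but the strand setting of the counting, the build and the annotation used for it were not given in the sources used here. Only gene spans were compared, not exons or strands, so whether reads of these transcripts were counted for IL17B is not known.

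The coding genes next to IL17B had a smaller range. PCYOX1L, which lies on one side, had a log2 fold change of 0.20 ± 0.184 for operated against control and a Pearson correlation with IL17B of -0.51. CSNK1A1, casein kinase 1 alpha, which lies on the other side, had -0.16 ± 0.103 and a correlation of 0.65, which was 0.33 with group means removed. Both had an edgeR adjusted p of 1.00. IL17RC and IL17RE are each other's next coding gene in the same annotation, and their levels had a correlation of 0.13.

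The genes most like the receptors were of several kinds, and those of IL17RD and IL17RE included muscle genes too. IL17RA was most like GPR183, an oxysterol receptor that guides immune cells (r = 0.963), ARHGAP30, a GTPase-activating protein of blood cells (0.957), and IFNGR2, a chain of the interferon gamma receptor (0.951). Without PLATE 1 these were 0.939, 0.916 and 0.913. Among the genes most like IL17RD were MEF2A, a muscle transcription factor (0.951), and FAT1, a protocadherin (0.950), which were at 0.868 and 0.856 without PLATE 1. IL17RB, IL17RC and IL17RE had looser partners. IL17RB was most like RAD1, a DNA damage checkpoint protein (0.811), RBM7 (0.803) and GLNB2 (0.788). IL17RC was most like AHDC1 (0.792), ZNF516 (0.767) and ZNF395 (0.766), and IL17RE was most like GYS1, muscle glycogen synthase (0.800), TNNC1, slow skeletal and cardiac troponin C (0.798), and RABGGTB (0.794). These correlations over 16 libraries are descriptions, ranked over all genes tested.

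IL17RA also moved with the mean log2 level of 10 tested neutrophil markers, with r = 0.810 (permutation p = 0.00019, adjusted p = 0.00627 over 66 relations of the 6 members with 11 marker lists) and a Spearman correlation of 0.697 (permutation p = 0.00366, adjusted p = 0.0561). Without sham 14 and PLATE 1, the libraries farthest from the median, r was 0.667. The summed level of the 11 markers ran from 194 to 1240 CPM in the controls. It spanned 68.0 to 143 CPM after sham surgery, 65.2 to 618 CPM beside acellular grafts and 321 to 4154 CPM beside PLATE grafts. MPO, the neutrophil granule peroxidase, was at 0 in 13 libraries and FPR2 in 3. IL17RD ran the other way, with r = -0.772 (permutation p = 0.00123, adjusted p = 0.0203) and a Spearman correlation of -0.624 (permutation p = 0.0117, adjusted p = 0.0774). Without sham 14 and PLATE 1 its r was -0.367, so that relation rests on those libraries. Within the 6 controls r was 0.576 for IL17RA and -0.09 for IL17RD. The relation of IL17RA was not with neutrophil markers alone. Its r was 0.788 with macrophage markers (permutation p = 0.00055, adjusted p = 0.0121), 0.686 with markers of T and natural killer cells (permutation p = 0.00358, adjusted p = 0.0407) and -0.679 with skeletal muscle markers (permutation p = 0.00435, adjusted p = 0.0407). Spearman correlations were 0.656, 0.679 and -0.694 (adjusted permutation p = 0.061, 0.0565 and 0.0561), and r without the 2 libraries farthest from each list's median was 0.690, 0.529 and -0.617. IL17RC had r = -0.672 with macrophage markers (permutation p = 0.00412, adjusted p = 0.0407) and -0.641 with neutrophil markers (permutation p = 0.00588, adjusted p = 0.0431). Its Spearman correlations were -0.706 and -0.547 (adjusted permutation p = 0.0561 and 0.145), and r without the 2 farthest libraries was -0.561 and -0.468. IL17RE had r = 0.506 with smooth muscle markers (permutation p = 0.0442, adjusted p = 0.162). No relation of a receptor passed an adjusted p of 0.05 by Spearman's correlation. The permutations moved libraries across groups, so differences between groups enter these p-values. With group means removed, r of IL17RA was 0.810 with neutrophil, 0.738 with macrophage, 0.688 with T and natural killer cell and -0.730 with skeletal muscle markers. That of IL17RC was -0.613 with macrophage and -0.474 with neutrophil markers, and that of IL17RD -0.752 with neutrophil markers. The part of immune cell content in these levels was not tested.

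**Figure D4:**
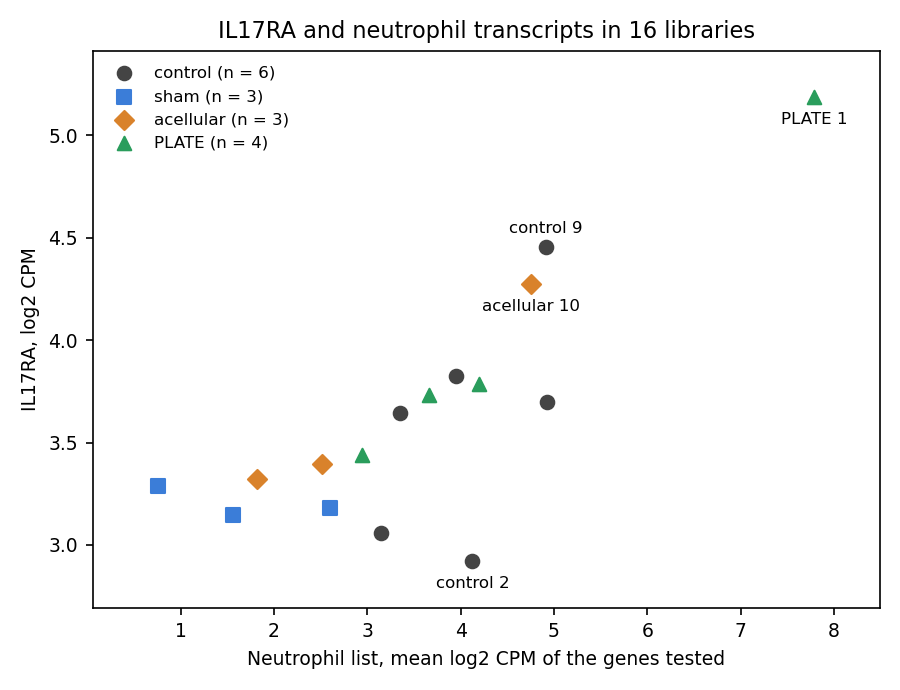
IL17RA against the mean of 10 neutrophil genes, both as log2 CPM, in 16 libraries; each point is an animal, coloured by group. PLATE 1 lay highest on both axes, the 3 sham libraries were low on both, and Pearson's r was 0.810 over all libraries and 0.667 without sham 14 and PLATE 1.

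Genes that interleukin 17 is known to induce in epithelium and stroma were taken as a list of 30, of which 16 were tested. For operated against control 6 were higher and 10 lower, where 55.4% of all genes were lower, and none was called. Their median log2 value was -0.46 against -0.026 for all genes. Without PLATE 1, 3 of 15 tested were higher, with a median of -0.85, and without control 9 alone 10 of 15 were higher, with a median of 0.83. Without control 2, control 9 and PLATE 1, 7 of 14 were higher, with a median of 0.021. The 3 with the smallest p were CCL2, a monocyte chemokine (-1.54 ± 0.692), MMP13, a collagenase (-2.97 ± 1.43), and LIF, a cytokine of the interleukin 6 family (-1.0 ± 0.503), each with an edgeR adjusted p of 1.00. All 16 were higher in PLATE than in sham, where 47.4% of all genes were lower, with a median of 3.25 against 0.025 for all genes. An unadjusted p under 0.05 in edgeR was held by 9 of the 16, against 5.85% of all genes in this direction, but none was called. Without PLATE 1, 12 of 15 tested were higher, with a median of 1.79. Between PLATE and acellular 14 of 16 were higher with a median of 2.61, which was 0.75 with 9 of 15 higher when PLATE 1 was left out.

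CXCL8 and S100A9, chosen after their values were seen, show the weight of that library. CXCL8 (interleukin 8), the main neutrophil chemokine, ran from 5.20 to 2378 CPM in PLATE and from 3.81 to 258 CPM in control libraries, but only up to 7.37 CPM in sham and 8.73 CPM in acellular libraries. S100A9, a calcium-binding protein abundant in neutrophils, ran from 19.5 to 1191 CPM in PLATE and from 29.5 to 218 CPM in control libraries, from 5.97 to 109.4 CPM in acellular and from 1.40 to 9.24 CPM in sham libraries. S100A9 was thus higher in all PLATE than in all sham libraries, as 7.91% of all genes were. S100A8, S100A9 and S100A12 belong to the neutrophil list too, and all 10 tested neutrophil markers were also higher in PLATE than in sham without PLATE 1 (median 1.91). With all libraries 47.4% of all genes were lower in PLATE than in sham, and the median of all genes was 0.025.

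Downstream of the receptors, 17 of 22 listed adaptors, kinases and transcription factors were tested. TRAF3IP2 (Act1), the adaptor that the receptors recruit, had means of 45.0 to 49.6 CPM in the 4 groups. For operated against control 6 of the 17 were higher and 11 lower, with a median of -0.04 against -0.026 for all genes. The 3 with the smallest p were NFKBIZ (-1.39 ± 0.525), a nuclear co-regulator of interleukin 17 targets, ARID5A (-0.64 ± 0.336), which stabilises their messenger RNA, and MAP3K7 (-0.13 ± 0.118), the kinase TAK1. None was called, and the edgeR adjusted p was 1.00 for each.

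Among negative regulators of the pathway 11 of 12 listed genes were tested. ZFP36, which destabilises cytokine messenger RNA, had a log2 fold change of -1.54 ± 0.525 for operated against control, DUSP1, a phosphatase of stress kinases, -1.55 ± 0.612, and CBLB, a ubiquitin ligase, 0.28 ± 0.194, each with an edgeR adjusted p of 1.00. In all, 5 were higher and 6 lower, with a median of -0.026, that of all genes. Between PLATE and sham 8 of 11 were higher with a median of 0.73, where 47.4% of all genes were lower and their median was 0.025. Without PLATE 1, 11 of 11 were higher with a median of 0.41, but GSK3B, BTRC, CBLB and USP25 lay only between 0.025 and 0.094. None was called in either comparison.

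**Figure D5:**
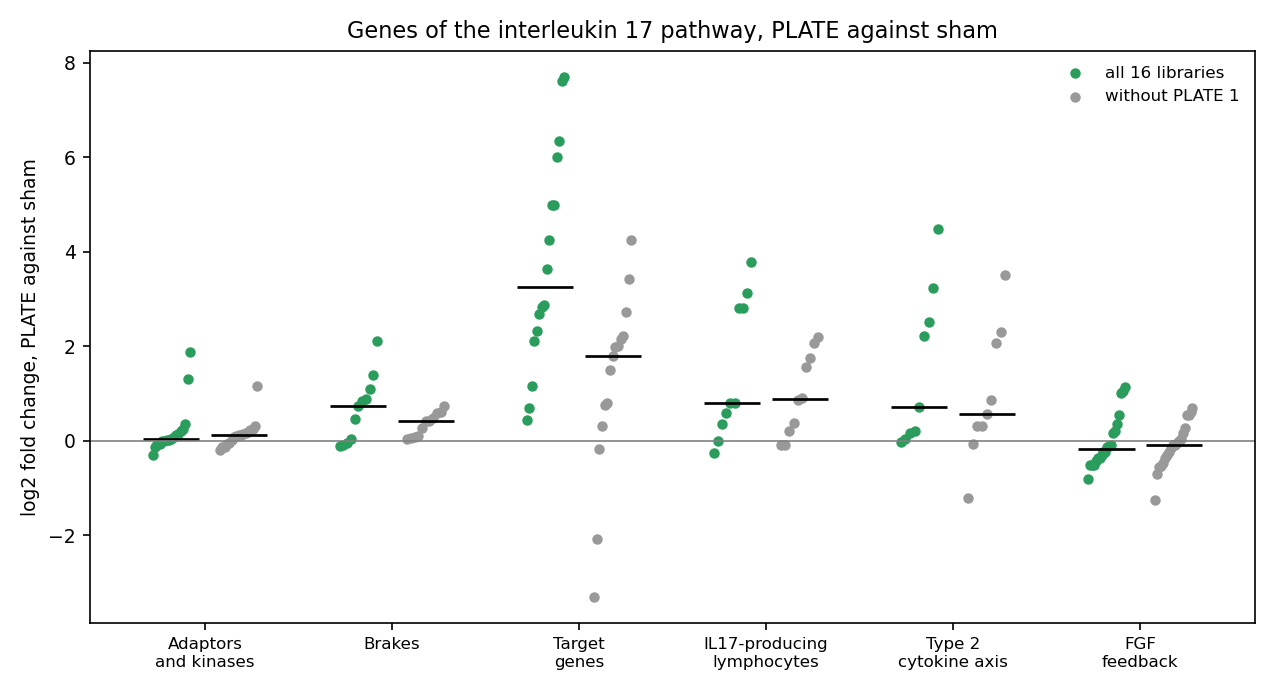
Log2 fold changes between PLATE and sham of the tested genes of each interleukin 17 pathway list, with all 16 libraries (green) and without PLATE 1 (grey); each point is a gene and black lines are list medians. The target genes had a median of 3.25 with all libraries and 1.79 without PLATE 1, and no gene of any list was called.

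Genes of lymphocytes that make interleukin 17 were tested for 10 of 17 entries, with 4 higher and 6 lower in operated animals and a median of -0.06 against -0.026 for all genes. IL23R, the interleukin 23 receptor that sustains such cells, had 1.40 ± 0.673, IL1R1, the interleukin 1 receptor, -0.33 ± 0.582, and STAT3, the transcription factor downstream of interleukins 6 and 23, -0.11 ± 0.232. IL23R rested on few counts, 20 in the 6 controls, 8 in the 3 sham, 41 in the 3 acellular and 78 in the 4 PLATE libraries. In the type 2 cytokine axis, in which IL25 and IL17RB act, 9 of 17 genes were tested, with 6 higher and 3 lower and a median of 0.08. POSTN, the matrix protein periostin, had 0.66 ± 0.585, GATA3, a lymphocyte transcription factor, 0.37 ± 0.373, and CCL11, the eosinophil chemokine eotaxin, 0.54 ± 0.549. All 6 genes had an edgeR adjusted p of 1.00. Without PLATE 1 the value of IL1R1 was -0.62, that of POSTN 0.25 and that of CCL11 0.089. Without control 9, 8 of the 10 lymphocyte genes were higher, with a median of 0.48, and 8 of the 9 type 2 genes, with a median of 0.58.

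FGF ligands, receptors and feedback genes, the company in which IL17RD is known, were tested for 20 of 21 entries. For operated against control 11 were higher and 9 lower, with a median of 0.16 against -0.026 for all genes, which was 0.084 without control 2 and PLATE 1. DUSP6, a phosphatase of the kinase ERK that FGF signalling induces, had -0.94 ± 0.396, FGFR4, an FGF receptor, 0.81 ± 0.477, and SPRY4, a Sprouty feedback inhibitor, -1.06 ± 0.630, each with an edgeR adjusted p of 1.00. Between PLATE and sham 7 were higher and 13 lower, where 47.4% of all genes were lower. The median of the list was -0.19 against 0.025 for all genes, and none was called.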

How the data were processed

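Poly(A) RNA of 16 vaginal samples was sequenced, taken as 1 library per rabbit. The authors deposited counts per gene, not normalized; FastQC, HISAT2 2.2.1 and featureCounts are named in the submitters' processing notes, and the genome build and annotation are not given in the sources used here. Rows without a gene name, 22.9 to 28.5% of counts, were left out of library sizes and tests. Libraries held 15348880 to 23236339 counts on named genes, so low genes are limited by counting error.

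Counts were scaled by TMM and fitted with the edgeR 4.0.16 quasi-likelihood F test (R 4.3.3) after filterByExpr by group. All 16 libraries entered 1 fit with a mean per group and 12 residual degrees of freedom. P-values were adjusted by Benjamini-Hochberg over 10942 genes at a threshold of 0.05. Log2 CPM used a prior count of 2. A ± after a log2 fold change is its standard error, the 95% intervals are unadjusted, and p-values of correlations come from 100000 two-sided permutations. The fit was tested on simulated data. All 16 columns were matched to samples by the names in their labels.

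The members and lists were chosen with earlier results of these data known. Named were all members, the 5 genes most like IL17B and the 3 most like each receptor (1 gene is not reported here), and the 3 with the smallest p of each pathway list for operated against control. Alternatives were DESeq2 size factors, no filter, DESeq2 1.42.0, limma 3.58.1 voom with quality weights, only the groups compared, 2 or 3 libraries that stand apart left out, and each library left out.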

Additional observations from a re-analysis of the deposited data

Results flagged for a closer look

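IL17RA stood at 36.3 CPM in PLATE 1, far from the other 3 PLATE libraries, which lay between 10.7 and 13.7 CPM. The gap to the nearest of them was 0.884 of the group's range. It was the only such value on the CPM scale among 12 combinations of a member and a group of 4 or more libraries. Chance flags about 1 in 20 where values are normally distributed. The gap rule was not applied to log2 levels, so the flag holds for the CPM scale only. On that scale IL17RA stood at 5.19 in PLATE 1, against 3.44 to 3.79 in the other 3 PLATE libraries. IL17RD stood at 1.43 in PLATE 1, against 3.48 to 3.89. PLATE 1 also held 72 counts of IL17A, against 8 in the other 15 libraries together, and the highest summed level of neutrophil markers, 4154 CPM.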

How the results depend on the processing

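The value of IL17B for operated against control, whose sign the choice of the gene fixed, ran from -2.08 (without control 9) to -1.37 (voom). No member was called in any alternative in a tested difference given above. Counts of called genes, 0 in edgeR, were 10 in DESeq2 between acellular and control, 14 between PLATE and sham, and 1 each between acellular and sham, PLATE and acellular, and operated and control. They were 72 with voom between acellular and sham and 2 in the joint test with only the operated groups fitted. Small values turned sign. IL17B between PLATE and sham ran from -0.23 to 0.47 when single libraries were left out. IL17RA between operated and control was -0.20 with voom, -0.27 without control 2 and PLATE 1, -0.056 without control 9 as well, and -0.16 to 0.24 without single libraries. IL17RA between PLATE and control was -0.022 with voom, -0.15 without control 2 and PLATE 1, and -0.034 to 0.74 without single libraries. IL17RC between operated and control was -0.045 with voom, -0.032 without the 3 libraries, and -0.042 to 0.10 without single libraries. IL17RE in that comparison was 0.61 with voom and -0.50 to 0.19 without single libraries. The cause of these changes was not tested. No paired analysis was possible because the groups share fewer than 2 animal numbers, only number 9 in control and PLATE.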
